A study of Mus musculus with 6 samples.

Results

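The regions described here are stretches of open chromatin that naive CD4 T cells and cells grown for 48 h under Th17 conditions had in common, and that were missing from the list of Th17 cells at 72 h. They were chosen by the measured peaks themselves: overlapping peaks of the 3 deposited lists, by 1 bp or more, were joined, and a joined region was a member when it held a naive peak and a 48 h peak and no 72 h peak. Of 81315 joined regions, 2091 met this rule, which is 2.57% of all regions (95% interval 2.46 to 2.68). They were 4.03% of the 51917 regions with a naive peak (3.86 to 4.20) and 5.59% of the 37425 regions with a 48 h peak (5.36 to 5.82). Among the 22903 regions with both a naive and a 48 h peak, 9.13% lacked a 72 h peak (8.76 to 9.51). That share was set by the rule, and nothing is read from it. Intervals of shares here are exact Clopper-Pearson binomial intervals, and they cover counting error only.

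All cells came from C57BL/6 mice, with age and sex not given in the sources used here. Naive CD4 T cells were untreated, and the other 2 conditions were naive cells cultured for 48 h or 72 h with 0.1 ng/mL TGF-β, 20 ng/mL IL-6, 0.25 µg/mL anti-CD3ε and 1 µg/mL anti-CD28 on plates coated beforehand with hamster IgG. Each condition has 2 libraries of 10000 cells, selected for fragments of 150 to 350 bp, and 1 peak list. Each list was deposited with the first library of its condition, and whether reads of the second entered it is not stated. The assay was ATAC-seq, where open DNA receives sequencing adapters from the Tn5 transposase, and a peak is a stretch where the authors' caller found an excess of insertions.

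T cells leave quiescence when antibodies to CD3 and CD28 stand in for antigen and costimulation, and TGF-β with IL-6 then steers them to the Th17 fate, which is known for IL-17 and depends on STAT3. Accessible sites at gene starts tend to be open in most cells, whereas sites inside and between genes, many of them enhancers, differ more between states. A site seen in resting cells and early in culture but not later belongs to neither the stable sites nor those that open with activation. Because cultures were measured in bulk, fewer cells with an open site and less opening per cell cannot be told apart.

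With 1 list per condition no spread between cultures could be computed and no test was run. A missing peak says that none passed the authors' calling, and not that chromatin was closed. The naive list held 53259 peaks, the 48 h list 40624 and the 72 h list 53926, so the list in which these regions have no peak was the longest. Read depth is unknown. The count of regions moved by more than 1.5 times under a pair of other settings. It was 3684 when the 72 h list was shortened, by highest score, to the length of the 48 h list, and 673 when each list was limited to peaks of at least its median width. The share of naive and 48 h regions, 9.13%, became 16.1% and 5.27% under these settings. Marker genes with a peak inside them or within 10 kb were also counted. All 8 T cell marker genes had one in each list, and the Th17 markers had one at 3 of 5 genes in naive cells and at 5 of 5 at 48 h and 72 h. Of markers of other cells, 7 of 8 B cell genes had a peak in the naive list, 6 at 48 h and 7 at 72 h. For myeloid cells it was 3 of 6 in each list, and for CD8 and NK cells it was 4, 5 and 5 of 6. No member region was found at the 20 marker genes of other cells, the 8 T cell markers or the 5 Th17 markers, and 2 of 6 naive T cell markers had one. Of 21896 protein-coding genes, 13891 had a region with a naive and a 48 h peak inside them or within 10 kb. A peak at a marker is therefore common, and these counts cannot check the labels. The part of other cells in the results was not tested.

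Few of the regions touched a gene's start. Of the 2091 members, 73 (3.49%, 2.75 to 4.37) overlapped the 250 bases before a RefSeq start, against 38.4% (37.7 to 39.1) of the 20812 regions present in all 3 lists. The other classes were low as well, with 1.49% (1.34 to 1.66) of naive-only regions, 2.08% (1.65 to 2.58) of 48 h-only regions, 3.96% (3.601 to 4.35) of regions with 48 h and 72 h peaks and 5.65% (5.05 to 6.28) of those with naive and 72 h peaks. The windows below are shown because a member reaches into each, and they show the letters at gene starts where the 72 h list had no peak. They are RefSeq sequence of build GRCm38.p6, read 5′ to 3′ on the gene's strand, and the last base is the one before the start. Capitals mark matches to any of 6 short motifs on either strand: TATAAA (core of the TATA box), GGGCGG (GC box), CCGGAAG (ETS family), TGTGGT (RUNX family), TGGAAA (NFAT core) and TGANTCA (AP-1). No position is shared by motifs in the windows shown. Tmod1, Dhtkd1 and Gimap1 were picked for printing after their values were seen.
Il2, chr3:37125955-37126204, minus strand: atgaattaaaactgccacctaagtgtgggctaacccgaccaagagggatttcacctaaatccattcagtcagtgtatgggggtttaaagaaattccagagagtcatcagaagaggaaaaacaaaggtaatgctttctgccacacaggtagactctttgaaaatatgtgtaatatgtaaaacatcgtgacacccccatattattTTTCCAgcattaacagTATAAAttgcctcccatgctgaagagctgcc
Slamf6, chr1:171917212-171917461, plus strand: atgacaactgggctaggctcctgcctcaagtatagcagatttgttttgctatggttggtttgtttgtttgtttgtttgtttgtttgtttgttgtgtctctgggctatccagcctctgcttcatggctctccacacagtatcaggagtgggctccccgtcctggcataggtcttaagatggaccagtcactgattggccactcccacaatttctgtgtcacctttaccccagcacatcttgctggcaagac
Gimap1, chr6:48738797-48739046, plus strand: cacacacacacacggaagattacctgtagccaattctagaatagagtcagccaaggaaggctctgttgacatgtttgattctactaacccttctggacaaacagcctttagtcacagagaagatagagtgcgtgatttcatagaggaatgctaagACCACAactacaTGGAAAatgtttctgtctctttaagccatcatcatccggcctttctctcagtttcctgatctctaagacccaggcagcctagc
Wdr31, chr4:62470900-62471149, minus strand: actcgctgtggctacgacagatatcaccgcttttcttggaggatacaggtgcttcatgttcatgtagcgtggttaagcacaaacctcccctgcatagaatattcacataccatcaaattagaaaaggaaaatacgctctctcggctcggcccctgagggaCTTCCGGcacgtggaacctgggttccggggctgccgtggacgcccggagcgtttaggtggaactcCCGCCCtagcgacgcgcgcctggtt
Tmod1, chr4:46038972-46039221, plus strand: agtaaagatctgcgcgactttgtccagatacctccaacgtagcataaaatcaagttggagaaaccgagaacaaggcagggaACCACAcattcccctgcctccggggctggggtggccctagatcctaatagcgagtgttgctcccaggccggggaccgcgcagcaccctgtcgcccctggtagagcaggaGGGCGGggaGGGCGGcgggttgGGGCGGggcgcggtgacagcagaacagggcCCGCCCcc
Dhtkd1, chr2:5942793-5943042, minus strand: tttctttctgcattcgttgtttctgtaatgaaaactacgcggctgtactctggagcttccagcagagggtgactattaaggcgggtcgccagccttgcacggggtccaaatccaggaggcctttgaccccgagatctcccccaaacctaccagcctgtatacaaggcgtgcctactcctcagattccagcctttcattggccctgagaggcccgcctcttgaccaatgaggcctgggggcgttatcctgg

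Il2 encodes interleukin-2, the growth factor that activated T cells secrete early. Its member region spanned chromosome 3, 37125760 to 37125995, and reached from the gene's first bases into the window. The 48 h peak covered the start and the last 41 bases of the window. The member's naive peak ended inside the gene, 24 bp short of the window. A separate naive-only region, 37126155 to 37126388, reached the other end of the window and held no 48 h peak. The 41 bases hold the TATAAA match at position -31, counted back from the start, and the NFAT core at -47 lies outside them. In naive cells the member's peak was 171 bp wide, and at 48 h it was 228 bp wide with a score of 84. The score is the authors' own whole number per peak, whose scale no header states. Values printed here are of the 48 h list, where the median peak had 69, and scores are not compared between lists. The 72 h score served only to rank or filter that list under other settings. At 72 h the nearest peak lay 2338 bp away. Il2 had no other region with a naive and a 48 h peak inside the gene or within 10 kb.

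Slamf6 encodes a receptor of the SLAM family on T cells. Its member, chromosome 1, 171917368 to 171917794, spanned the start of the gene, with a naive peak of 365 bp and a 48 h peak of 174 bp and score 65. The naive peak covered 32 bases of the window and the 48 h peak 94. The window has 1 CpG and no match to the 6 motifs, which says only that these letters are not in it. Gimap1 encodes a GTPase needed for the survival of mature lymphocytes, and its window has 3 CpGs with a RUNX match at -95 and an NFAT core at -83. Wdr31 encodes a WD40 repeat protein. Its window has 19 CpGs, a GC box at -25 and an ETS match at -90. Tmod1 encodes tropomodulin, which caps actin filaments, and its window has 17 CpGs and GC boxes at -8, -38, -51 and -60, with a RUNX match at -169. Dhtkd1 encodes a mitochondrial dehydrogenase, and all 250 bases of its window, with 10 CpGs and no match, lay within the naive peak and 173 within the 48 h peak. At 5 of these 6 genes, Il2 being the exception, both peaks covered the start itself. The 6 windows thus ran from 1 to 19 CpGs and from no motif to several GC boxes.

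Promoter windows under members had fewer CpGs than those under regions of all 3 lists, as did windows under the other classes given here. Members overlapped 78 windows, of which 69, from 67 genes, lay under members alone. The naive and the 48 h peak both reached 56 of the 69, the naive peak alone reached 12, and the 48 h peak alone reached 1. The Il2 window was also touched by a naive-only region. The 69 windows had a median of 9 CpGs (quartiles 5 and 15), against 18 (12 and 24) for 9737 windows under regions of all 3 lists and 3 (1 and 6) for 9840 windows with no region. For 717 windows under regions of all 3 lists with a 48 h score of at most 57, the upper quartile of the members, the median was 14 (8 and 22). Windows under naive-only regions had a median of 7 (4 and 12), and those under 48 h-only regions and under regions of naive cells and 72 h had 11 each, so the members fell among these classes. The median over all 21237 windows was 10. TATAAA was found in 11 of the 69 member windows (15.9%, 8.24 to 26.7), in 4.77% (4.35 to 5.21) of windows under regions of all 3 lists, in 6.14% (4.49 to 8.15) of the 717 low-scoring ones and in 11.6% of all windows. GGGCGG was found in 39.1% (27.6 to 51.6) of member windows, 65.4% (64.4 to 66.3) under regions of all 3 lists, 58.0% (54.3 to 61.7) of the low-scoring ones and 42.6% of all windows. For both motifs the interval of the members held the share of all windows and did not overlap the interval of the low-scoring stable windows. In the other classes TATAAA was found in 11.6% (5.14 to 21.6) of 48 h-only windows, 8.49% (5.67 to 12.1) of those with naive and 72 h peaks and 7.27% (4.72 to 10.6) of naive-only windows. GGGCGG was found in 42.4% (37.0 to 48.0) of naive-only windows, 56.5% (44.0 to 68.4) of 48 h-only windows and 57.5% (51.9 to 63.0) of those with naive and 72 h peaks. Of these intervals for both motifs, only the last did not overlap that of the members.

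CCGGAAG occurred in 8.70% (3.26 to 17.97) of member windows, against 9.21% (7.19 to 11.6) of the low-scoring stable ones and 8.99% of all windows. The shares for TGTGGT were 15.9% (8.24 to 26.7), 9.76% (7.69 to 12.2) and 12.4%. For TGGAAA they were 18.8% (10.4 to 30.1), 14.9% (12.4 to 17.7) and 17.0%, and for TGANTCA 2.90% (0.353 to 10.1), 4.603% (3.19 to 6.403) and 6.14%. In each of these 4 motifs the interval of the members overlapped that of the low-scoring stable windows. A match is a run of letters and not a bound site.

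Member regions had low 48 h scores. Their median was 46 (quartiles 37 and 57), the 90th percentile was 70 and the highest was 147. The 20812 regions of all 3 lists had a median of 94 (60 and 148). Regions found at 48 h alone resembled the members, with a median of 44 (37 and 55), and those with 48 h and 72 h peaks only had 64.5 (46 and 97). A score under 40, near the lowest of 30 in the list, was held by 635 members. A score of 100 or more was held by 25. None of the 5102 regions with a naive and a 48 h peak and a score of 150 or more was a member.

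**Figure D1:**
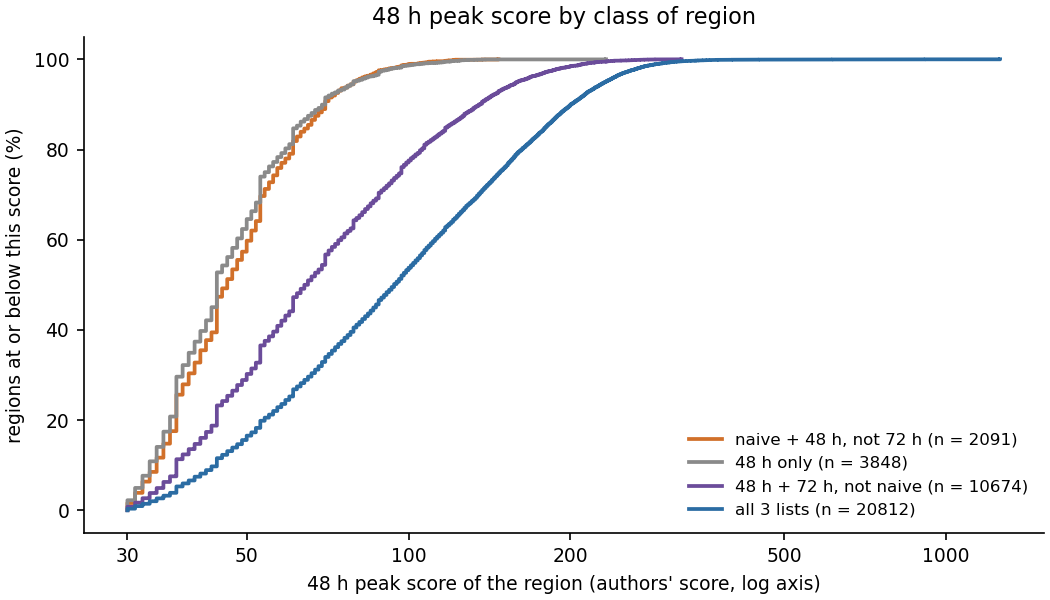
Cumulative share of regions (%) against the authors' 48 h peak score (log axis), for members (naive and 48 h, not 72 h) and for the 3 other classes with a 48 h peak. The curve of the members, with a median of 46, runs beside that of regions found at 48 h alone (44) and left of that of regions of all 3 lists (94).

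In the same range of 48 h scores, a region with a naive peak was less often without a 72 h peak than a region lacking a naive peak. At scores of 30 to 54, 1490 of 5766 regions with a naive peak had no 72 h peak (25.8%, 24.7 to 27.0), against 2885 of 6896 without a naive peak (41.8%, 40.7 to 43.0). At 55 to 87 the shares were 9.40% (8.66 to 10.2) and 19.8% (18.6 to 21.0), and at 88 to 141 they were 1.03% (0.780 to 1.32) and 5.20% (4.36 to 6.14). From 142 upward 1 region of 5720 and 1 of 903 had no 72 h peak. The bins are quartiles of the score over regions with a naive and a 48 h peak. The presence of the naive peak is part of the rule, so these shares describe the lists.

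**Figure D2:**
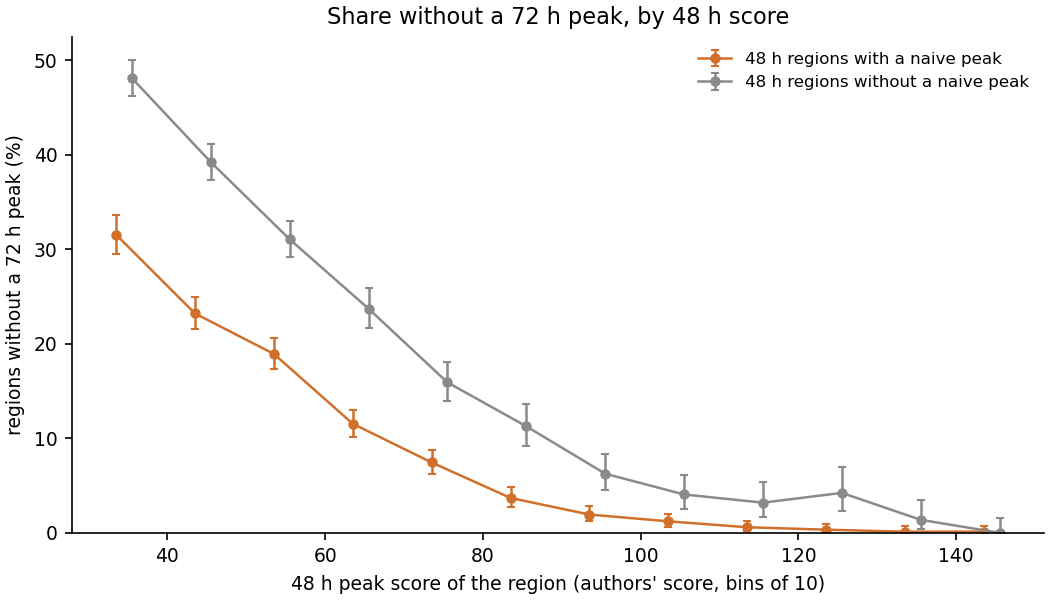
Share of 48 h regions without a 72 h peak (%) by 48 h score in bins of 10, for regions with and without a naive peak, with exact 95% intervals as bars. In the lowest bin the shares are 31.6% and 48.1%, and both fall as the score rises.

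Within the same score bin the share without a 72 h peak was lower near gene ends and for wide naive peaks. Under the 1 bp rule a wider naive peak has more bases that can meet a 72 h peak. Shares by width therefore describe the lists, and those by position were not matched for width. A region is called near a gene end when no more than 1 kb separated its middle from the start or end of a protein-coding gene. At scores of 30 to 54 the share was 19.1% (17.0 to 21.3) near gene ends, 28.1% (26.3 to 29.9) inside genes away from their ends and 27.4% (25.5 to 29.4) outside. At 55 to 87 the corresponding shares were 3.69% (2.85 to 4.70), 11.3% (10.02 to 12.7) and 12.4% (10.9 to 14.0). A naive peak of at most 466 bp, the median, went with a share of 29.5% (28.1 to 30.8) in the lower bin, and a wider naive peak with 11.8% (10.04 to 13.8). In the upper of these bins the values were 13.2% (12.1 to 14.3) and 2.22% (1.62 to 2.97). Over all scores, the share without a 72 h peak was 23.4% (22.3 to 24.5) for naive peaks of 100 to 270 bp, 9.73% (8.98 to 10.5) for 271 to 466 bp, 3.01% (2.58 to 3.48) for 467 to 747 bp, 0.465% (0.266 to 0.753) for 748 to 1003 bp and 0.175% (0.0478 to 0.448) for wider ones.

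Members were narrow in naive cells and narrower at 48 h. A narrow region has fewer bases that can meet a 72 h peak, so the rule bears on these widths. The naive peak had a median width of 222 bp (quartiles 161 and 319), against 506 bp (299 and 778) in regions of all 3 lists, 256 bp in regions with naive and 72 h peaks only, and 193 bp in naive-only regions. The 48 h peak had a median of 133 bp (108 and 178), against 337 bp in regions of all 3 lists. Within a member the 48 h peak was 0.637 times as wide as the naive peak at the median, and this ratio was 0.733 in regions of all 3 lists. The 48 h peak was the wider one in 384 members. It lay wholly inside the naive peak in 1147 members, and the naive peak lay wholly inside the 48 h peak in 121. The median share of the naive peak that the 48 h peak covered was 57.8% (41.4 and 77.6), against 70.5% in regions of all 3 lists. The overlap was 118 bp at the median, and in 22 members it was 25 bp or less.

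**Figure D3:**
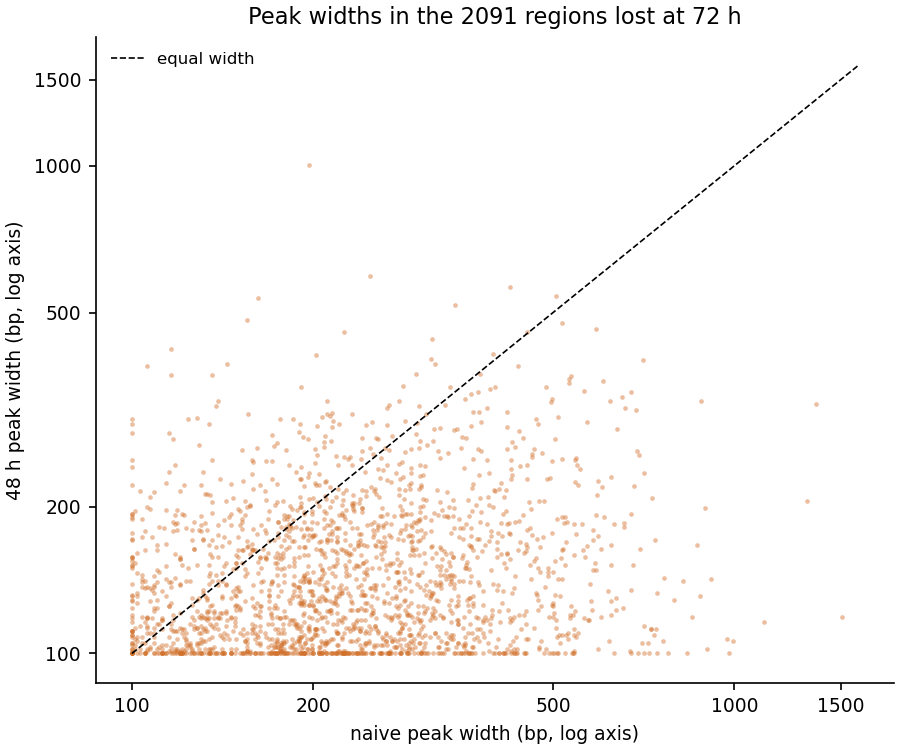
Width of the 48 h peak against width of the naive peak (bp, log axes) in the 2091 members, 1 point per region, with a dashed line of equal width. Most points lie under the line, 384 above it, and most of the widest naive peaks sit over 48 h peaks near the lower limit of 100 bp.

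Members lay mostly away from gene ends. Near a gene end were 317 (15.2%, 13.6 to 16.8), inside genes away from the ends 979 (46.8%, 44.7 to 49.0), and outside 795 (38.0%, 35.9 to 40.1). Of regions in all 3 lists, 46.5% (45.8 to 47.2) were near a gene end. The share was 16.0% (15.02 to 17.0) in regions of naive cells and 72 h without a 48 h peak, 10.9% (9.90 to 11.9) in 48 h-only regions and 10.1% (9.69 to 10.5) in naive-only regions. With 2.5 kb in place of 1 kb, 24.5% of the members were near a gene end. Within the score bin of 30 to 54, 16.6% (14.7 to 18.6) of members and 24.5% (23.2 to 25.8) of regions of all 3 lists were near a gene end, and within 55 to 87 these shares were 11.6% (9.05 to 14.6) and 31.5% (30.2 to 32.8). Overlap with the 250 bases before a start followed the same order. In the lower bin it was 3.62% (2.73 to 4.70) of members against 13.1% (12.1 to 14.1), and in the upper 3.51% (2.12 to 5.42) against 23.6% (22.4 to 24.7). These comparisons were not matched for width. In the upper bin the median naive width was 219 bp in members and 378.5 bp in regions of all 3 lists.

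**Figure D4:**
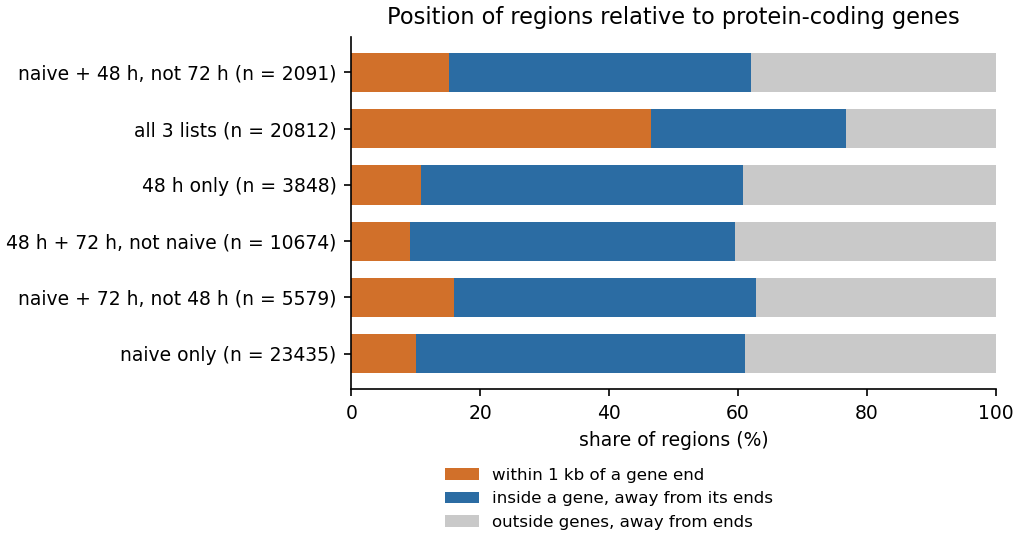
Share of regions (%) within 1 kb of an end of a protein-coding gene, inside a gene away from its ends, and outside, for 6 classes of regions. The bar of the members has 15.2% near gene ends, close to regions of naive cells and 72 h without 48 h (16.0%) and below regions of all 3 lists (46.5%).

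A minority of members lay close to a 72 h peak, at a share near that of 48 h-only regions. The median distance to the nearest 72 h peak was 5351 bp (quartiles 917.5 and 12877). It was at most 500 bp for 399 members (19.1%, 17.4 to 20.8), against 20.6% (19.3 to 21.9) of 48 h-only regions and 15.1% (14.7 to 15.6) of naive-only regions. At most 1 kb it was 26.0% (24.1 to 28.0), against 27.7% and 22.5%. Of the 399, the neighbouring 72 h peak belonged to a region of all 3 lists in 259 cases (64.9%) and to a 72 h-only region in 55 (13.8%). It belonged to one of naive cells and 72 h in 43 (10.8%) and to one of 48 h and 72 h in 42 (10.5%). In the whole series these classes held 20812, 14876, 5579 and 10674 regions, in the same order.

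Some members sat at the edge of the 1 bp rule. In Vps53, whose product tethers vesicles to the Golgi, a member ended 1 bp from a 72 h peak. The next closest were near Vrk1 at 10 bp, near Cdc14a at 12 bp, in Lcp2 at 14 bp and in Adgrv1 at 20 bp, and 22 members lay under 50 bp away. Just outside the rule, regions in Sltm, near Rapgef5, in Retreg1, in Snx30 and in Pds5a shared 10, 12, 14, 19 and 19 bp with a 72 h peak. There were 13 regions of all 3 lists with under 50 bp shared.

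The members with the highest 48 h scores lay away from gene ends. The highest, 147, belonged to a region of chromosome 8, 80753445 to 80753593, 10837 bp from Gab1, which encodes a docking protein of growth factor receptors. Its naive peak was 149 bp wide, and the nearest 72 h peak was 13537 bp away. In Whrn, a scaffold gene of hair cells in the ear, a member at chromosome 4, 63486597 to 63486857, had a score of 137. Scores of 122 occurred in Ica1l and in Trim36, a ubiquitin ligase gene, 121 in Wdfy2 and 119 in Trio, which encodes a guanine nucleotide exchange factor. Then came a region 69615 bp from Lonrf2 with 118, and regions in Ifi211, an interferon-inducible gene, and Pcmt1, a protein repair enzyme, with 117 each. The tenth, with 113, lay on the Y chromosome 67353 bp from the predicted gene Gm52481. For 8 of these 10 the 72 h list had no peak within 500 bp. The members of Ica1l and Trio were the exceptions, with a 72 h peak 198 and 221 bp away.

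Among members near gene ends, the highest 48 h score was 109, in Acot6, an acyl-CoA thioesterase gene, at chromosome 12, 84100658 to 84101129. Tlr7, which encodes the endosomal sensor of single-stranded RNA, had a member with score 97 whose middle lay 76 bp from a gene end, and the nearest 72 h peak was 25452 bp away. A member beside Tagap1 also scored 97. F2rl3, the gene of a thrombin receptor, followed with 95, then Padi4, whose product converts arginine to citrulline in histones, with 94. Arhgap40 had 92, the histone gene H2bc4 90, Wdr31 86, Polh, a translesion DNA polymerase gene, 85 and Tgif2, which encodes a repressor of TGF-β responses, 84, where the nearest gene end was that of LOC115486128. The members of this set had a 72 h peak between 316 and 25452 bp away.

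A small number of members were wide in naive cells and reduced to a short peak at 48 h. In 20 members the naive peak exceeded 750 bp, and the 48 h peak covered a median of 13.4% of it. The widest lay in Dlgap5, a mitotic spindle gene, at chromosome 14, 47394984 to 47396494, where a naive peak of 1511 bp met a 48 h peak of 119 bp with a score of 61 (7.88% covered). The next widths were 1363 bp near LOC115489673, 1318 bp in Crim1, 1121 bp beside Slc14a1, 994 bp in Slc37a3, 980 bp near Stk24, 973 bp near Sp3, 915 bp in Gnat1, 900 bp in Camk2d and 893 bp at Ctse. Covered shares over these 10 ran from 7.88% in Dlgap5 to 33.5% at Ctse, which encodes cathepsin E. The member at Ctse had its middle 8 bp from a gene end.

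Members were spread over many genes, most with a single one. Within 10 kb of a protein-coding gene lay 1614 members, and of the 19340 regions with a naive and a 48 h peak there, 8.35% were members. At least 1 member was found at 1904 of 13891 genes with such a region (13.7%). A single member was found at 1700 genes, 2 members at 177, 3 at 21 and 4 at 6. Following one another with no region between, 1951 members stood alone, 67 pairs occurred and 2 runs of 3.

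One run of 3 was at Fgf15, which encodes a hormone of the gut that restrains bile acid synthesis. Its members lay 421, 6161 and 6929 bp from the gene, with naive widths of 233, 313 and 193 bp and 48 h scores of 57, 65 and 56. They were all 3 of its regions with a naive and a 48 h peak, and the 72 h list had no peak within 10 kb of the gene. The other run reached from Zfp1, a zinc finger gene, to Bcar1, which encodes an adhesion adaptor, with scores of 40, 74 and 46.

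At 6 genes there were 4 members, out of differing totals of regions with a naive and a 48 h peak. In Frmd6, a FERM domain gene linked to the Hippo pathway, 4 of 5 were members. In Focad the count was 4 of 7 and in Ubash3b 4 of 8. The product of Ubash3b is a phosphatase that dampens T cell receptor signalling. In Ext1, a heparan sulphate polymerase gene, it was 4 of 9, in Msi2, an RNA-binding protein gene, 4 of 9, and in Cytip, which encodes a regulator of leukocyte adhesion, 4 of 11. At Frmd6 the members had naive widths of 361, 290, 128 and 175 bp and 48 h scores of 47, 46, 52 and 52, while the fifth region, over the start, had a naive width of 1254 bp, a 48 h score of 109 and a 72 h peak. In Msi2 the scores of the members ranged from 36 to 92 and in Cytip from 38 to 88. The nearest 72 h peak lay 463, 1350, 170 and 442 bp from the Cytip members and 24289, 212, 1685 and 350 bp from those of Msi2. At Frmd6 it lay 926, 4300, 6966 and 479 bp away and at Ubash3b 7315, 262, 23555 and 2340 bp. At Focad and Ext1 it was never closer than 1313 bp.

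Of 1641 genes with 4 or more naive and 48 h regions, 47 (2.86%) had members in at least 50% of them. Whether this count exceeds chance was not tested. Beside Frmd6, Focad and Ubash3b these included Poc1a, a centriole gene, and Rnf19b, a ubiquitin ligase gene, with 3 of 4 each. Arl15, Rps6ka5, a kinase gene, and Tctex1d1 had 3 of 5 each. Dennd1b, whose product acts in the traffic of receptors, and Man2a2, an enzyme gene of N-glycan processing, had 3 of 6. In Dennd1b the 48 h peak of 1 member was 304 bp wide over a naive peak of 128 bp, with a score of 97, while the other two scored 37 each.

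Gene lists, of T cell genes and also of other cells, general functions and unrelated tissues, were read against the level of 8.35%. Across 19 lists with 284 genes, 245 genes had a region with a naive and a 48 h peak, and 44 had a member. Of 722 such regions, 54 were members (7.48%, 5.67 to 9.65), an interval that holds the level. Each list's own interval also held 8.35%, so no list stood apart at these counts.

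In the Th17 lineage list, 4 of 28 regions were members (14.3%, 4.03 to 32.7), 3 of them inside Rora and 1 in Stat3. Rora encodes the nuclear receptor RORα. Its members lay on chromosome 9 at 69072207 to 69072536, 69174058 to 69174326 and 69336206 to 69336401, with naive widths of 211, 240 and 194 bp and 48 h scores of 55, 48 and 78. The first of these had a 48 h peak covering the whole naive peak, and the second was 74 bp from a 72 h peak. Rora had 10 regions with a naive and a 48 h peak and Stat3 had 4. Il17a and Il17f had none with both peaks. The Stat3 member, with a naive width of 320 bp and a score of 41, is also counted for the neighbouring Stat5a.

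In the IL-6 and STAT3 list, 5 of 36 were members (13.9%, 4.67 to 29.5). They lay at Il6st, the shared receptor subunit gp130, Socs3, the feedback inhibitor of STAT3, Stat3, Jak1 and Il21r. The member counted for Jak1 lay 5312 bp from it, inside another gene. At Socs3 the member was 101 bp from the gene, 301 bp wide in naive cells and at the lowest score of the list, 30. At Il6st, 803 bp from the gene, a naive peak of 405 bp met a 48 h peak of 107 bp with a score of 49.

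In the list of naive and quiescent T cell genes, 9 of 76 were members (11.8%, 5.56 to 21.3). Foxp1, a forkhead factor that keeps T cells quiescent, held 3 of 22 regions (13.6%), with naive widths of 200, 225 and 284 bp and scores of 46, 38 and 42. Bach2, a repressor of effector genes, held 2 of 18 (11.1%), both within its body, with naive widths of 439 and 254 bp and scores of 36 and 62. A single member, of 4 regions, was found at Satb1, which encodes a chromatin organiser, with a naive peak of 490 bp, a 48 h peak of 144 bp and a score of 33. Foxo1 and Dapl1 also had a single member each, of 2 and 1 regions, with scores of 31 and 44. The nearest 72 h peak lay 351 and 406 bp from the Bach2 members and 193 bp from the Satb1 member. For the Foxp1 members it lay 247, 11503 and 547 bp away, and for Foxo1 and Dapl1 3740 and 7121 bp. Those within 500 bp would not be members if so close a 72 h peak counted as present.

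In the early activation list, 7 of 63 were members (11.1%, 4.59 to 21.6). Icos, the gene of an inducible costimulatory receptor, had 2 of 3. The member inside Icos, chromosome 1, 60961097 to 60961377, had a naive width of 281 bp and a score of 62, and the other, 5686 bp outside, 154 bp and 34. Tnfrsf9, which encodes the costimulatory receptor 4-1BB, had 2 of 6, with naive widths of 280 and 593 bp and scores of 45 and 66. Il2 and Il3, both cytokine genes of activated T cells, had 1 of 1. The Il3 member lay 7768 bp from the gene, with a naive width of 203 bp and a score of 59. Egr3, a factor induced by T cell receptor signals, had 1 of 3, with a 48 h peak of 280 bp over a naive peak of 171 bp and a score of 31.

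**Figure D5:**
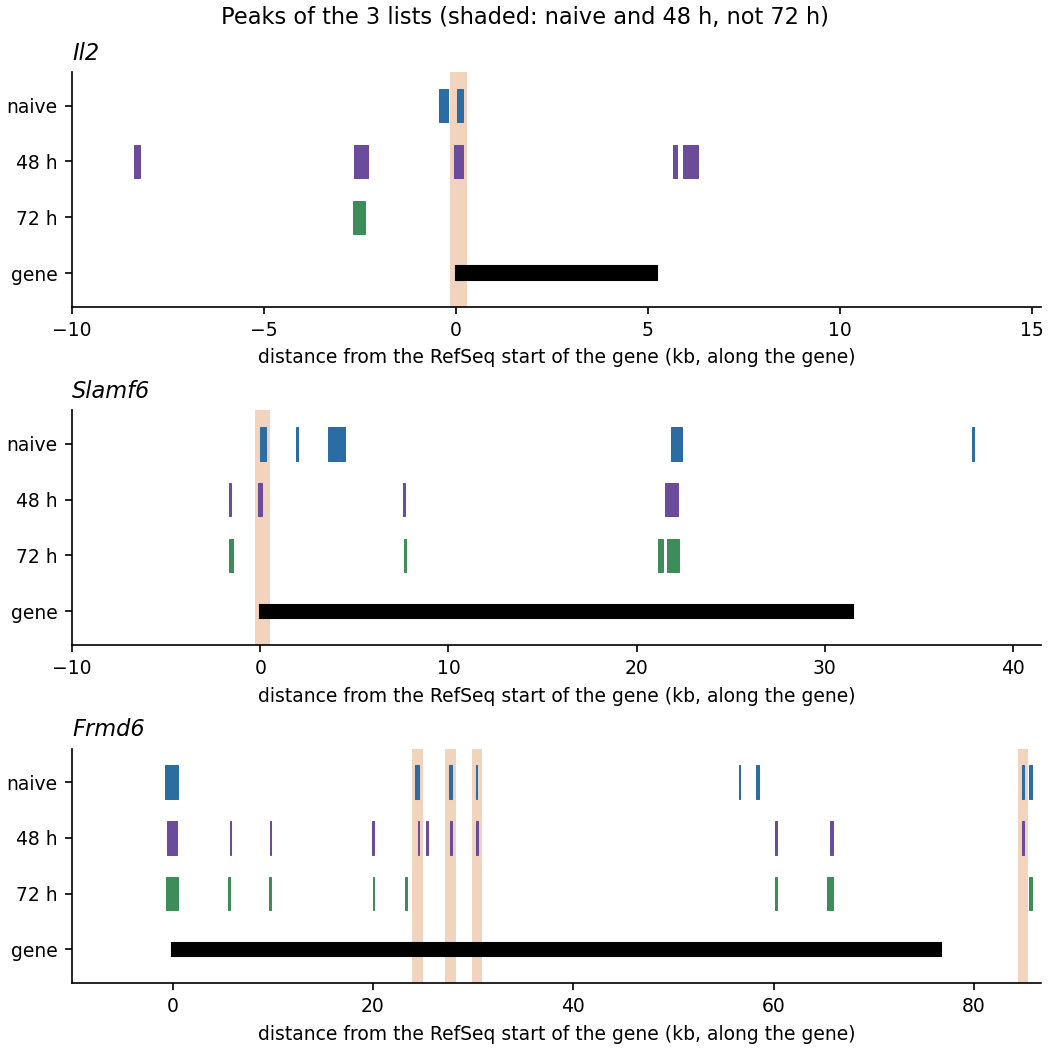
Peaks of the naive, 48 h and 72 h lists at Il2, Slamf6 and Frmd6 against distance from the RefSeq start (kb, along the gene), with the gene body as a black bar and members shaded (shading widened for visibility). At Il2 and Slamf6 the member sits over the start, with the naive peak of the Il2 member just inside the gene. At Frmd6 3 members lie in the body and 1 lies past its far end.

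The intervals of the next lists held the level of 8.35% too, so no low count among them is read as a result. No region of the AP-1, BATF and IRF factors was a member, of 39 (upper limit 9.03%), and none of 26 at housekeeping genes (upper limit 13.2%). The T cell receptor and calcium signalling list had 7 of 107 (6.54%, 2.67 to 13.0), with 2 of 8 in Cblb, a ubiquitin ligase gene that restrains activation, and others in Fyn, Lcp2, Prkcq and Nfatc2. In Prkcq, a kinase gene of this pathway, the naive peak was 477 bp wide and the 48 h peak 106 bp, with a score of 54. The NF-kappaB list had 3 of 50, lying 8260 bp from Nfkbid, inside another gene, 5190 bp from Bcl3 and 2527 bp from Traf1. The IL-2 and STAT5 list had 3 of 56, at Il2, Jak1 and Stat5a. The TGF-β and regulatory T cell list had 1 of 41, in Ski, a repressor of SMAD signalling, where 719 bp of naive peak met 105 bp at 48 h.

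Genes of other T cell fates had members too. Th1 genes had 3 of 19 (15.8%, 3.38 to 39.6), in Stat4, Runx3 and Il12rb2, and Th2 genes 1 of 21, in Gata3, the Th2 master factor, with a score of 39. Follicular helper genes had 4 of 29 (13.8%, 3.89 to 31.7). They were 2 of 8 in Tox with naive widths of 656 and 130 bp and scores of 88 and 36, 1 in Bcl6 with a score of 39, and the one at the start of Slamf6. Growth, cell cycle and metabolism genes had 4 of 69, with 2 of 6 in Cdk6 and 1 each near Cdkn1b and Rptor. Pan T cell genes had 5 of 62, with 2 of 6 at Cd247, the gene of the CD3 zeta chain, and 1 each at Ptprc, Ikzf1 and Gimap4. Of the members counted for Cd247, 1 lay 8124 bp from it, inside another gene. B cell markers had 1 of 11, near Vpreb3, where the naive and 48 h peaks shared 1 bp. Vpreb3 is not among the 8 B cell genes of the marker count above. Myeloid markers had none of 9, CD8 and NK markers none of 7, and genes of unrelated tissues 1 of 8, near Cdx2.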

How the data were processed

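Peaks were called by the authors in ATAC-seq data of naive, 48 h Th17 and 72 h Th17 cells. Tools in the submitters' processing notes are MACS2 2.2.6, Bowtie2 2.3.4.1, deepTools and SAMtools 1.9, with build GRCm38, also named mm10. Not given in the sources used here are calling threshold, duplicate treatment, Tn5 shift, filters and any pooling of libraries. The deposited 48 h and 72 h lists hold a score per peak, the naive list none, and no list has a header. A naive line that held no values was dropped (1 line). Merging used peaks that share 1 bp, and it was tested on simulated data of well separated regions. Peaks that share a few bp or lie a few bp apart were not part of that simulation. Genes were 21896 protein-coding genes of RefSeq GRCm38.p6, with 10 kb on each side, so neighbours can share regions, and strand came only from the promoter table. Python 3.11.15, pandas 2.3.3, numpy 2.4.6 and scipy 1.17.1 were used. Named are the list genes, multi-member genes, runs, extremes of score and width, and members nearest the rule. Members and gene lists were chosen with earlier results of these data known. Of the list genes, 2 were not in the gene table as protein-coding genes. A few genes that count in the lists are not reported here by name.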

Additional observations from a re-analysis of the deposited data

How the results depend on the processing

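The count of 2091 stayed within 1.5 times at 1692 when a 72 h peak within 500 bp counted as present, 1808 with 48 h and 72 h scores of at least 50, and 2088 on autosomes and X. Without merging, naive peaks that overlapped a 48 h peak and no 72 h peak were counted in place of regions. There were 2198 of them, and 2291 when an overlap needed at least 50% of the shorter peak. A 72 h peak that met only the 48 h peak was not looked for in these counts. The count of regions was 3684 when the 72 h list was cut by score to the length of the 48 h list, and 673 with each list limited to peaks of at least its median width. The shares of naive and 48 h regions were 16.1% and 5.27% against 9.13%. The share near a gene end, 15.2%, became 10.5% with the 500 bp rule and 24.5% at 2.5 kb. The median 48 h score, 46, became 61 with scores of at least 50 and 48 with the shortened 72 h list. The share with a 72 h peak within 1 kb, 26.0%, became 8.57%, 20.4% and 22.6% with the 500 bp rule, the score minimum and the shortened list. The share at list genes, 7.48%, became 10.3% with the score minimum. Over all naive and 48 h regions, those far from genes included, the share under that minimum was 9.795%, against 9.13% without it. Within 10 kb of genes, where the list regions lie, the share was 8.35% without the minimum and was not computed under it. The cause was not tested, though the 500 bp rule and the score minimum act on these quantities by construction. The same minimum was put on 2 lists whose scores may differ in scale. No paired analysis was possible because each condition has 1 peak list, and for the same reason no replicate could be left out. Read depth is unknown, so a peak missed at 72 h for lack of reads cannot be told apart from a closed site.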

Other observations

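The share of naive and 48 h regions without a 72 h peak ran from 7.28% (5.43 to 9.51) on chromosome 19 to 11.3% (9.31 to 13.4) on chromosome 15 among autosomes, and 42 of 525 regions on X lacked one (interval 5.83% to 10.7%). On Y 3 of 5 regions lacked one, and on the mitochondrial genome none of 7.

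Of 1005 RefSeq miRNA hairpins, 6 had a member within 1 kb. A member at chromosome 2, 92191939 to 92192406, overlapped Mir1955, with a 48 h score of 71. The others lay 341 bp from Mir12181, 590 bp from Mir6919, 647 bp from Mir574, 647 bp from Mir7b and 997 bp from Mir1900, with scores of 34 to 47.

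The regions next to members on each side belonged to all 3 lists in 31.0% of cases, against 25.6% of all regions, to 72 h alone in 15.3% against 18.3%, and to other members in 3.40% against 2.57%. Within 10 kb of another member lay 153 members.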
